A study of Homo sapiens with 6 samples.

Results

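The transcripts described here are those that the GENCODE 29 annotation (GRCh38) types as targets of nonsense-mediated decay (NMD). They were chosen from the deposited transcript table, which gives abundance in TPM, a unit scaled for transcript length and library total, by their annotated type and by reaching 1 TPM or more in at least 2 of the 6 libraries. This left 3116 transcripts of 2263 genes, or 20.5% of the 15197 NMD-annotated transcripts listed, in a table of 251955 transcripts. The TPM values chose the transcripts, so their detection is a description and not a result.

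The libraries were made from polyadenylated RNA of TCam-2, a human testicular germ cell tumour line of the seminoma type. RBMXL3 here stands for cells that received a FLAG-tagged RBMXL3, GFP for cells that received a FLAG-tagged GFP as a negative control, and WT for cells left without transduction, with 2 libraries in each of the 3 groups. RBMXL3 belongs to the RBMX family of RNA-binding proteins, and the study asked which genes differ in expression or splicing when it is overexpressed. The vector, its promoter and whether the transduced cells were a clone or a pool are not given in the sources used here.

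NMD is a cytoplasmic surveillance pathway that degrades messenger RNAs on which translation stops too early. During splicing an exon junction complex is left upstream of each exon junction, and a ribosome that ends well before the last junction leaves such a complex in place, where it helps UPF proteins to trigger decay. The pathway clears products of splicing errors, and many splicing factors use it to hold down their own levels through poison exons, which carry a stop codon. An annotated NMD type is a prediction from the position of the stop codon, and decay itself was not measured.

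The annotated type of these transcripts rests on where the stop codon lies relative to the exon junctions. In each pair of lines that follows, the NMD-annotated transcript stands above the most abundant coding transcript of its gene, read 5′ to 3′ from the spliced GENCODE 29 transcripts on GRCh38. Lower case marks coding sequence that both share, capitals mark what follows the point where they part, and the NMD-annotated line ends at its stop codon. The 5 pairs were picked from the largest changes in share described further on, where both reading frames start together.
PFDN4-202: cttgaagctgatgaaagGAACACATGA
PFDN4-201: cttgaagctgatgaaagTTAA
PGM2-204: atccagactacacagTATCACATTTGA
PGM2-201: atccagactacacagGGATTTTGCAGA
PDS5B-203: caaccaaaaaaaaatgtGTAA
PDS5B-201: caaccaaaaaaaaatgtCCGT
RPF2-201: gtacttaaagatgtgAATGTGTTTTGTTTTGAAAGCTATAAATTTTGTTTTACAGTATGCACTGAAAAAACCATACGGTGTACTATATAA
RPF2-203: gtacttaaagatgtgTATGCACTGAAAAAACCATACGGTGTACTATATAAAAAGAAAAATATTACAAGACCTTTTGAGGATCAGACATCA
SLC12A4-216: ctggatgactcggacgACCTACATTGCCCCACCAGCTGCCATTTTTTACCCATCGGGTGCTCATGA
SLC12A4-201: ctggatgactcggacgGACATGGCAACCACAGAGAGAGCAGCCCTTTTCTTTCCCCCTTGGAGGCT

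The stop codon of PFDN4-202 lies at chr20:54224235-54224237 on the plus strand, 62 nt before the last exon junction, and the transcript shares 133 codons with PFDN4-201. The frame of PGM2-204 ends at chr4:37839867-37839869 on the plus strand, after 83 codons shared with PGM2-201 and 1273 nt before the last junction. PDS5B-203 keeps 1390 codons of PDS5B-201 and stops at chr13:32770763-32770765 on the plus strand. RPF2-201 shares 52 codons with RPF2-203 and stops at chr6:110989060-110989062 on the plus strand, with 405 nt to the last junction. SLC12A4-216 shares 38 codons with SLC12A4-201 and stops at chr16:67952376-67952378 on the minus strand, 572 nt before the last junction.

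In another kind of NMD-annotated transcript the stop codon is that of a protein-coding transcript, and an intron has been removed after it. DLD-203 carries all 509 codons of the coding transcript DLD-201, ends at chr7:107919257-107919259 on the plus strand and has 124 nt from there to its last junction. In the 2 lines below the capitals mark the stop codon, and CUL2-205 is shown because its stop, at chr10:35060874-35060876 on the minus strand, comes after 90 codons and 1789 nt before the last junction.
DLD-203: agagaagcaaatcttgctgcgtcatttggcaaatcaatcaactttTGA
CUL2-205: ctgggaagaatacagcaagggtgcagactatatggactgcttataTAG

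Of the 3116 transcripts, 3111 had an annotated stop codon, and in 3093 of these (99.4%) it lay at least 50 nt before the last exon junction in the spliced RNA. The median distance was 328 nt, the median transcript length 1176.5 nt and the median open reading frame 90 codons. The stop of 1547 transcripts lay in exon sequence of the leading coding transcript, the coding transcript of the gene with the highest mean TPM, without being the stop of any coding transcript. The stop of 1126 lay in sequence outside its exons, and 388 used the stop of a protein-coding transcript with an intron after it. Another 50 belonged to genes with no coding transcript listed, and 5 had no annotated stop. The start of the reading frame was missing from the annotation of 760 transcripts (24.4%), so their codon counts are lower limits.

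**Figure D1:**
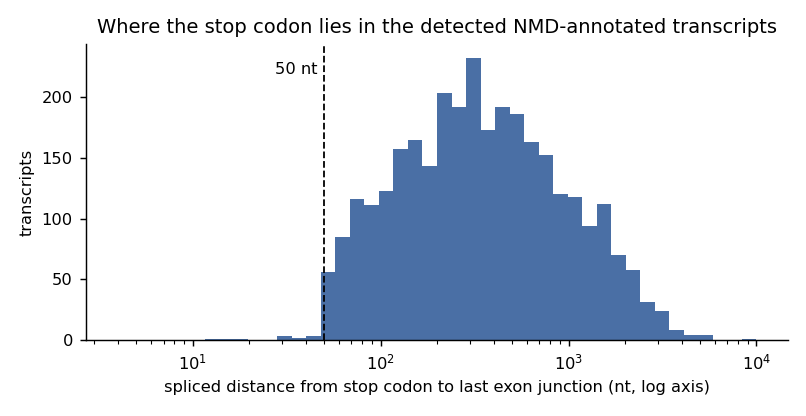
Spliced distance from the stop codon to the last exon junction, in nt on a log axis, for the 3104 NMD-annotated transcripts with a distance above 0. Bars count transcripts, the dashed line marks 50 nt, and 7 transcripts with a distance of 0 or below are not drawn.

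Most of these transcripts were low in every library. The median of the mean TPM over the 6 libraries was 2.20, while 423 transcripts had a mean of at least 10 TPM and 28 a mean of at least 100 TPM. A TPM of at least 1 in all 6 libraries was reached by 1308 of the 3116, and 1020 were listed at 0 TPM in some library. Of the transcripts, 99 passed the minimum only in RBMXL3 libraries, 34 only in GFP libraries and 32 only in WT libraries. With neither RBMXL3 library passing, 348 passed in any 2 or more of the 4 controls, so this count is not like the 99. These transcripts passed through the libraries where they are higher, and the same counts were not made over all transcripts. The second highest library decides membership: just inside lay FXYD5-213, ZGRF1-204 and TTLL7-212 at 1.001708, 1.001978 and 1.002652 TPM, and just outside lay RANBP1-210, PEX19-210 and OPA1-221 at 0.999948, 0.999021 and 0.998563 TPM.

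The libraries differed in depth, at 29318007 and 28604436 recovered gene reads for WT, 26776703 and 23080795 for GFP, and only 17685680 and 21023355 for RBMXL3. TPM keeps no depth, so no counting interval can be given for a transcript. RBMXL3 itself had 0 reads in each control and 84 and 68 in the RBMXL3 libraries. The seminoma markers POU5F1, NANOG, SOX17, TFAP2C, ALPL and PDPN were at 121 TPM or more in every library. PRDM1 stood at 14.9 to 28.2 TPM, and KIT at 2.44 to 6.26 TPM. In gene reads they lay closer, at 1508 to 3204 for PRDM1 and 1096 to 3045 for KIT. Why the 2 measures differ was not tested. Of the markers listed for other cells, EPCAM stood at 781 to 1007 TPM and VIM at 417 to 502 TPM. COL1A1, SOX9 and DDX4 were at 6.58 TPM or less, and PTPRC, a leukocyte marker, at 0.136 TPM or less. The median absolute log2 difference between replicates, over the transcripts described, was 0.42 for the WT pair, 0.45 for the GFP pair and 0.34 for the RBMXL3 pair. The labels give no batch and do not say whether replicates were separate cultures, so p-values measure only the spread between these libraries, and a difference in preparation and the group cannot be told apart.

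NMD-annotated transcripts took a like share of every library. Their summed TPM, members and others together, was 2.55% and 2.62% of the WT libraries, 2.78% and 2.39% of the GFP libraries, and 2.44% and 2.51% of the RBMXL3 libraries. Both RBMXL3 libraries lay within the range of the 4 controls, whose lowest and highest values were the 2 GFP libraries. The difference between RBMXL3 and the controls was -0.108 percentage points, with a two-sided exact permutation p of 0.533, in a design whose smallest possible p is 0.133. Beside this, retained-intron transcripts ranged from 3.77% to 4.36% and transcripts of the processed type from 3.06% to 3.72%, with exact p-values of 0.933 and 0.133. GFP replicate 1 had the highest share of all 3 types.

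**Figure D2:**
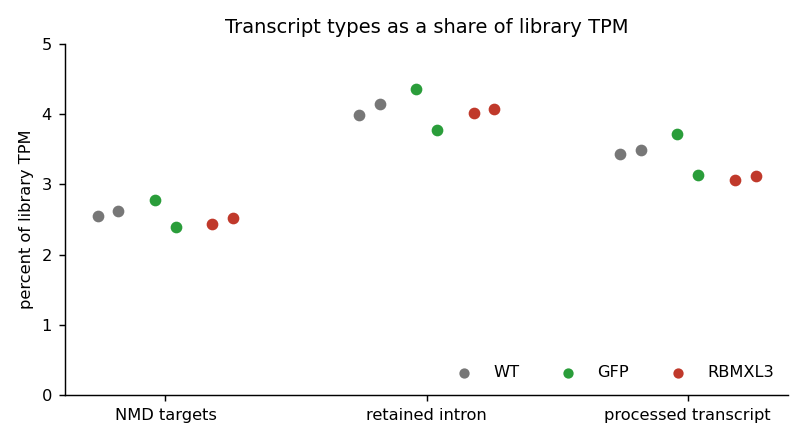
Summed TPM of NMD-annotated, retained-intron and processed transcripts as a percent of library TPM, with a point for each of the 6 libraries and the axis starting at 0. The NMD-annotated values lie between 2.39% and 2.78%, and those of RBMXL3 lie within the range of the controls.

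The 8 most abundant NMD-annotated transcripts came from genes of RNA binding, translation, respiration and the cytoskeleton. HNRNPA1-205, from the gene of a splicing regulator that also shuttles messenger RNA, stood at 697 and 869 TPM in the WT libraries, 1001 and 914 with GFP, and 1218 and 1337 with RBMXL3. Both RBMXL3 libraries were above all controls, but limma gave adjusted p-values of 0.20 against GFP and 0.0858 against WT. HNRNPA2B1-203, from a related gene, stood at 740 and 714 TPM in the WT libraries, 558 and 526 with GFP, and 435 and 474 with RBMXL3. It was lower than in WT (log2 change -0.68; limma adjusted p 0.0371) and was not called against GFP (-0.25; adjusted p 0.20). Its share of the gene's TPM lay between 48.7% and 55.7% in all 6 libraries, and the level of the gene itself was lower than in WT (log2 change of gene reads -0.48; limma adjusted p 0.0104).

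SFPQ-206 comes from the gene of a paraspeckle protein that acts in transcription and splicing. It had 417 and 350 TPM in the WT libraries, 394 and 260 with GFP, and 150 and 135 with RBMXL3, and its share was 50.4% to 59.3% in the controls and 34.4% and 31.5% with RBMXL3. Both RBMXL3 libraries lay below all controls in TPM and in share. The share test of limma gave adjusted p-values of 0.15 against GFP and 0.171 against WT, and the TPM test 0.0941 and 0.0617. TPM3-219, of the tropomyosin 3 gene, showed a like order, with 413 and 373 TPM in the WT libraries, 383 and 306 with GFP, and 225 and 203 with RBMXL3 (limma adjusted p 0.105 and 0.0637). Neither passed the threshold of 0.05 in these limma tests of TPM and share (share of TPM3-219: adjusted p 0.213 and 0.276). By diffSplice TPM3-219 was lower against both controls (adjusted p 0.00684 and 0.0243), and SFPQ-206 was not called (0.146 and 0.0989).

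RPS3-218, from the gene of a small-subunit ribosomal protein, was at 497 and 542 TPM in the WT libraries, 793 and 731 with GFP, and 910 and 818 with RBMXL3. It was higher than in WT (log2 change 0.73; limma adjusted p 0.0453) and was not called against GFP (0.18; adjusted p 0.384). EIF3F-205, of a translation initiation factor subunit, lay between 361 and 492 TPM in the 6 libraries and took 74.2% to 82.3% of its gene's TPM. UQCRB-203, of a complex III subunit whose gene reads were lower against both controls (limma log2 changes -0.70 and -0.63; adjusted p 0.00125 and 0.00114), had 313 and 398 TPM in the WT libraries, 374 and 444 with GFP, and 242 and 253 with RBMXL3 (limma adjusted p 0.11 and 0.182). HNRNPA1, RPS3 and UQCRB have processed pseudogenes, and reads can be split among near-identical copies, so these levels are uncertain.

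The TPM of each transcript was compared across groups with limma, over all 44693 transcripts that passed the minimum. Against GFP, 27 NMD-annotated transcripts were higher and 23 lower in RBMXL3, 1.60% of the 3116, where 1.25% of all transcripts were called (0.562% higher and 0.685% lower). Against WT, 25 were higher and 31 lower, 1.80% beside 1.53% of all transcripts (0.613% higher and 0.92% lower). Both comparisons share the RBMXL3 libraries, and 18 transcripts were higher and 21 lower against both controls, 1.25% beside 0.929% (0.371% higher and 0.557% lower). With a pseudocount of 0.1 in place of 1, 11 were higher and 27 lower. These shares were near the background. Between GFP and WT limma called 0, where it called 0.0% of all transcripts, with 202 at an unadjusted p under 0.05. Fewer transcripts were called against both controls when any single library was left out. Such a fit leaves 1 library in a group and weakens every test, so it cannot tell whether a single library drove the calls.

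Most calls in TPM were of transcripts present in the libraries of some groups and at 0 in the others. Of the 18 rises, 17 passed the minimum only in RBMXL3 libraries and 12 were listed at 0 TPM in all 4 controls. Of the 21 falls, 12 passed only in controls and 11 were listed at 0 TPM in both RBMXL3 libraries. Such transcripts had to differ to be members, so their number is no support for a change.

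Transcript share, the percent of a gene's summed TPM that a transcript takes, sets the level of the gene aside. It was tested with limma on the arcsine of the square root of the share, over 35757 transcripts, of which 2979 were NMD-annotated. Against GFP, 18 rose and 13 fell (1.04%, beside 0.744% of all transcripts, 0.355% higher and 0.389% lower), and against WT 16 rose and 10 fell (0.873%, beside 0.716%, 0.324% higher and 0.392% lower). Against both controls, 14 rose and 8 fell, 0.739% beside 0.523% of all transcripts, where 0.266% of all transcripts rose and 0.257% fell. Between GFP and WT limma called 0 (0.0% of all transcripts), with 157 NMD-annotated transcripts at an unadjusted p under 0.05. Limma's diffSplice tested 3042 NMD-annotated transcripts of 36184 in all. Between GFP and WT it called 16 (0.526%), beside 0.445% of all transcripts. diffSplice called 157 against GFP (5.16%), 134 against WT (4.4%) and 88 against both (2.89%), beside 4.45%, 4.16% and 2.46% of all transcripts. Of the 22 called against both controls, 20 were also called by diffSplice and 18 by the TPM test. Leaving out any of the 6 libraries in turn left 0 of these calls.

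All 14 rises passed the TPM minimum only in RBMXL3 libraries, and 10 of them were at 0 TPM in all 4 controls. Of the 8 falls, 4 passed only in controls and were at 0 TPM in both RBMXL3 libraries. These 14 rises and 4 falls had to differ to be members, so their number supports no change, and the p-values given for them below describe the size of a difference against the spread of the libraries. In all 22 the RBMXL3 libraries lay outside the 4 controls, but so did 459 NMD-annotated transcripts on the higher side (15.4%) and 341 on the lower side (11.4%), beside 15.3% and 11.5% of all transcripts. The 22 transcripts came from 20 genes. Only FAM76B, with log2 changes of gene reads of 0.56 and 0.39, was also called at the gene level against both controls, where limma called 13.7% of all genes.

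**Figure D3:**
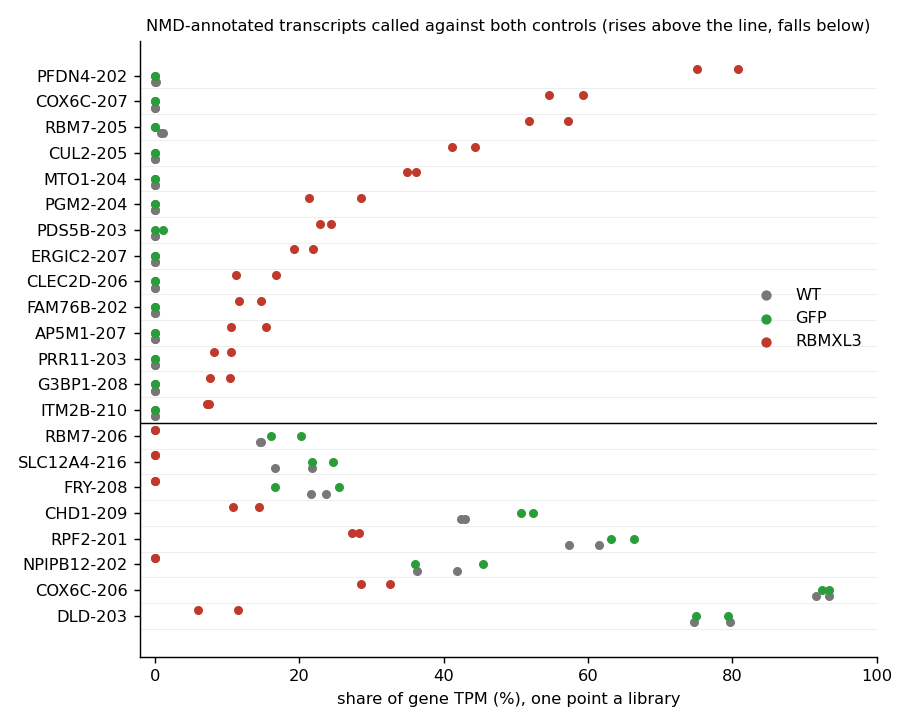
Share of gene TPM, in percent, of the 14 NMD-annotated transcripts that rose and the 8 that fell against both controls, with a point for each library. In every line the 2 RBMXL3 points lie outside the 4 control points, from PFDN4-202 at 75.1% and 80.8% to DLD-203 at 6.02% and 11.5%.

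PFDN4 encodes a subunit of prefoldin, a chaperone that hands unfolded actin and tubulin to a folding complex. PFDN4-202 (chr20:54208095-54228052, plus strand) was at 0.333 and 0 TPM in the WT libraries, 0 and 0 with GFP, and 118 and 136 with RBMXL3, or 75.1% and 80.8% of its gene. The controls were all near 0 and did not overlap with RBMXL3. The share test gave limma adjusted p-values of 0.0176 against GFP and 0.0143 against WT. Its counterpart PFDN4-201, shown above, fell from at least 99.2% in the controls to 22.002% and 17.6%. The 2 share 3 introns, PFDN4-202 has 2 more, and its annotated end lies 8099 nt further 3′. Gene reads of PFDN4 were not called (log2 changes -0.34 and -0.15; limma adjusted p 0.169 and 0.533).

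COX6C encodes a subunit of cytochrome c oxidase, the last enzyme of the respiratory chain, and 2 of its NMD-annotated transcripts moved in opposite directions. COX6C-206 had 616 and 668 TPM in the WT libraries, 720 and 739 with GFP, and 176 and 215 with RBMXL3. COX6C-207 was listed at 0 TPM in all 4 controls and at 365 and 360 TPM in RBMXL3. In share, COX6C-206 went from between 91.6% and 93.4% in the controls to 28.6% and 32.5% (limma adjusted p 0.0188 and 0.0143), and COX6C-207 rose to 59.3% and 54.5% (0.0176 and 0.0143). The 2 transcripts have 75 codons each and stop 141 nt before their last junctions, share 3 introns with 1 more of their own each, and measure 566 and 562 nt. Summed over all NMD-annotated transcripts, COX6C held 91.6% to 93.4% in the controls and 87.8% and 87.1% in RBMXL3, a difference that was not called (limma adjusted p 0.372 and 0.434).

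RBM7, a subunit of the complex that targets nuclear RNA to the exosome, also had 1 NMD-annotated transcript that rose and 1 that fell in share. RBM7-206 had 4.47 and 4.38 TPM in WT and 7.77 and 4.01 in GFP, and was listed at 0 in both RBMXL3 libraries. RBM7-205 had 0.251 and 0.334 TPM in the WT libraries, 0 and 0 with GFP, and 8.88 and 8.56 with RBMXL3, where its share was 57.2% and 51.9%. Both use the same stop codon, at chr11:114405732-114405734 on the plus strand, 65 nt before the last junction. Limma gave share p-values of 0.0254 and 0.0293 for RBM7-206 and 0.0176 and 0.0143 for RBM7-205, adjusted. Unlike in COX6C, the summed NMD share of the gene was 15.4% to 20.2% in the controls and 57.2% and 51.9% in RBMXL3, just over the threshold (limma adjusted p 0.0519 and 0.0501). The counterpart of RBM7-205 was the coding transcript RBM7-208, at 54.7% to 63.9% in the controls and 27.3% and 28.1% in RBMXL3.

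CUL2 encodes the cullin scaffold of ubiquitin ligases that hold the von Hippel-Lindau protein. CUL2-205 was listed at 0 TPM in all 4 controls and at 4.37 and 7.34 in RBMXL3, or 44.3% and 41.1% of the gene (limma adjusted p 0.0176 and 0.0143). The coding transcript CUL2-206 held 61.2% to 71.9% in the controls and 0% and 21.4% in RBMXL3, and was not called against both. MTO1-204, from a gene that modifies mitochondrial transfer RNA, had 0 TPM in every control library and 4.77 and 5.66 in RBMXL3, a share of 34.9% and 36.2% (adjusted p 0.0176 and 0.0143). Both transcripts are low, at under 10 TPM in every library.

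The other 3 of the 8 largest rises were of PGM2-204, PDS5B-203 and ERGIC2-207. PGM2, a sugar-phosphate mutase, had PGM2-204 at 0 TPM in the controls and at 9.64 and 13.4 in RBMXL3, a share of 21.4% and 28.5% (limma adjusted p 0.0264 and 0.0243), while PGM2-201 went from between 96.8% and 98.5% to 68.7% and 62.7%. PDS5B-203, from a regulator of cohesin, had 0 and 0 TPM in the WT libraries, 0.159 and 0 with GFP, and 3.85 and 4.12 with RBMXL3 (share adjusted p 0.0438 and 0.0363). ERGIC2-207, from a gene of transport between endoplasmic reticulum and Golgi, stood at 0 TPM in the controls and at 17.7 and 22.02 in RBMXL3, a share of 19.2% and 21.96% (adjusted p 0.0235 and 0.0225). The remaining 6 rises were of AP5M1-207, CLEC2D-206, FAM76B-202, G3BP1-208, ITM2B-210 and PRR11-203, with RBMXL3 shares from 7.20% for ITM2B-210 to 16.8% for CLEC2D-206.

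DLD, the dihydrolipoamide dehydrogenase shared by several mitochondrial dehydrogenase complexes, had the largest fall in share. DLD-203 was at 64.5 and 63.1 TPM in the WT libraries, 64.4 and 61.6 with GFP, and 5.04 and 9.97 with RBMXL3, and its share went from between 74.7% and 79.6% to 6.02% and 11.5%. The controls lay close together and far above both RBMXL3 libraries (limma adjusted p 0.0249 and 0.0243). Another NMD-annotated transcript of the gene, DLD-202, had 0 TPM in every control library and 7.46 and 11.7 in RBMXL3, and rose in TPM (limma adjusted p 0.0241 and 0.0226); its share, 0% in the controls and 8.90% and 13.5% in RBMXL3, was called against GFP and just missed the threshold against WT (0.0495 and 0.0501). DLD-202 passed the TPM minimum only in RBMXL3 libraries, so its p-values only describe the size of a difference against the spread. Gene reads of DLD were not called (log2 changes -0.03 and -0.05).

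RPF2 and CHD1 also had falls in transcripts that took a large share in the controls. RPF2-201, from a factor that brings the 5S particle into the large ribosomal subunit, had 35.7 and 32.7 TPM in the WT libraries, 31.2 and 35.4 with GFP, and 11.9 and 13.2 with RBMXL3. Its share fell from between 57.4% and 66.4% to 27.3% and 28.3% (limma adjusted p 0.0320 and 0.0422). CHD1-209, from a chromatin remodeler, had 25.1 and 20.97 TPM in the WT libraries, 23.4 and 21.95 with GFP, and 2.93 and 3.30 with RBMXL3, a share of 42.3% to 52.4% in the controls and 10.8% and 14.5% in RBMXL3 (limma adjusted p 0.0264 and 0.0384). In both cases no RBMXL3 library overlapped a control.

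The last 3 falls ended at 0 TPM in both RBMXL3 libraries. SLC12A4-216, from a potassium-chloride cotransporter gene, had 10.02 and 10.99 TPM in WT and 15.8 and 10.5 in GFP (limma adjusted p of the share 0.0254 and 0.0293). FRY-208, from a gene of a microtubule-binding protein, had 1.76 and 1.74 TPM in WT and 0.937 and 1.41 in GFP (adjusted p 0.0426 and 0.0394). NPIPB12-202 had 3.86 and 6.69 TPM in WT and 3.62 and 4.59 in GFP (adjusted p 0.0249 and 0.0243), but its gene belongs to a family of near-identical copies, so its reads are uncertain.

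For each of the 22, the transcript of the gene with the largest opposite change in share was looked up. It was protein-coding in 14, NMD-annotated in 3 and of another type in 5, and it was itself called in the opposite direction against both controls in 5. Every pair differed in at least 1 intron. Transcripts of a gene share most of their sequence, so these shares are estimates of the authors' quantification, and reads over single junctions were not analysed here.

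**Figure D4:**
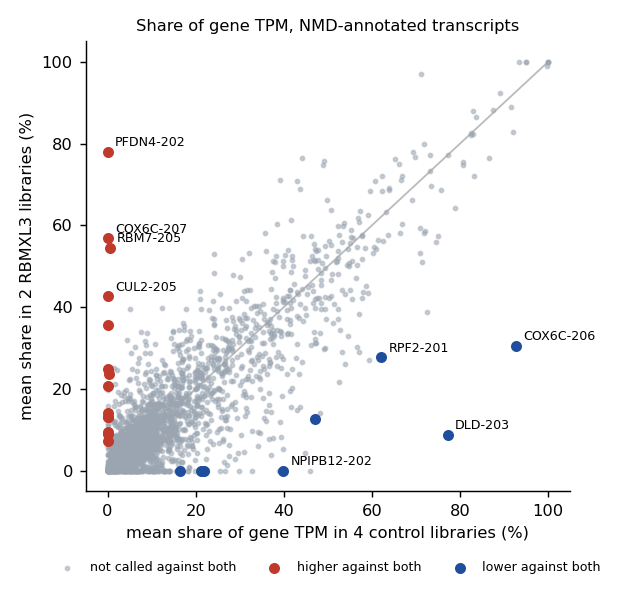
Mean share of gene TPM, in percent, in the 4 control libraries (x axis) and the 2 RBMXL3 libraries (y axis) for the 2979 NMD-annotated transcripts tested, with the diagonal of equal shares in grey. Red and blue points mark the 14 rises and 8 falls against both controls; the 14 rises sit at the left edge, at or near 0% in the controls.

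The shares of all NMD-annotated transcripts of a gene were also added up and tested. Of 2881 genes tested with limma, 6 rose and 6 fell against GFP (0.417% of the genes, 0.208% each way), 4 rose and 1 fell against WT (0.174%, or 0.139% and 0.0347%), and 3 rose and 0 fell against both (0.104%). The 3 were PFDN4, CUL2 and ERGIC2, whose summed NMD share was 0.126% or less in every control. They met the 1% minimum only through RBMXL3, so they had to differ. Their calls rest on the transcripts already called singly and are no further support. With a gene mean of at least 20 TPM, 7 rose and 4 fell against both. Against WT, DLD, PGM2, RBM7 and PDS5B missed the threshold at an adjusted p of 0.0501, with DLD at 79.6% and 75.4% in WT and 15.6% and 24.99% in RBMXL3. With any 1 library left out, 0 genes were called against both. At an unadjusted p under 0.05 stood 354 genes against GFP and 341 against WT, beside 428 and 386 of the 2979 transcripts in the test of single shares. Between GFP and WT, INSIG2, an anchor of sterol sensing, rose from 0% and 0% to 39.3% and 34.0%, and DPP10 fell from 20.3% and 21.6% to 0% and 0% (limma adjusted p 0.0433 and 0.0488; 0.0694% of the genes, 0.0347% each way). INSIG2 and DPP10 likewise met the 1% minimum only through the group where they were above 0%. In RBMXL3 both genes were at 0%, and neither call was left without any 1 of the libraries. The median share over genes was between 6.08% and 7.42% in the 6 libraries.

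Splicing regulators are the textbook users of poison exons, and 16 transcripts of the SR and TRA2 genes were among those detected. None of the 16 was called by limma in TPM or in share, against either control, where at most 1.53% of all transcripts were called. TRA2B-206 had 80.0 and 88.0 TPM in the WT libraries, 91.8 and 92.1 with GFP, and 99.6 and 93.0 with RBMXL3. SRSF1-206 had 152 and 146 TPM in the WT libraries, 148 and 112 with GFP, and 93.1 and 94.9 with RBMXL3, with RBMXL3 below all controls (limma adjusted p 0.208 and 0.115), while reads of the SRSF1 gene were higher (0.89 and 0.75; adjusted p 0.00205 and 0.0031). The median log2 change of the 16 was 0.04 against GFP and 0.15 against WT, beside 0.13 and 0.03 over all transcripts tested.

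Of 49 transcripts of hnRNP and other splicing-regulator genes, 1 rose and 1 fell in TPM against both controls. Over all transcripts 0.371% rose and 0.557% fell, so single calls are no result about the group. RBM39-206, from a splicing coactivator gene, had 0 TPM in every control library and 15.01 and 14.95 in RBMXL3 (limma adjusted p 0.00867 and 0.00878). HNRNPDL-205 had 13.9 and 14.96 TPM in the WT libraries, 17.8 and 11.2 with GFP, and 0.536 and 0 with RBMXL3 (0.0241 and 0.0220), from a gene whose reads were lower as well (-0.49 and -0.60). RBM39-206 passed the TPM minimum only in RBMXL3 libraries and HNRNPDL-205 only in controls. Their p-values thus only describe the size of a difference against the spread of the libraries. None of the 37 transcripts of core spliceosome genes was called in TPM against either control, beside 1.25% of all transcripts against GFP and 1.53% against WT. The medians were 0.26 and 0.23 for the regulators and 0.05 and 0.29 for the spliceosome.

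Other gene groups were described in the same way. Against both controls 0.371% of all transcripts rose in TPM and 0.557% fell, so a single call is no result about its group. Of 36 transcripts of cytosolic ribosomal protein genes, 0 rose and 1 fell against both controls. That was RPS3-210, which stood at 470 and 272 TPM in the WT libraries, 396 and 291 with GFP, and 35.1 and 38.2 with RBMXL3 (limma log2 changes -3.18 and -3.25; adjusted p 0.0255 and 0.0232). Among 48 transcripts of translation factors and transfer RNA synthetases, 0 rose and 1 fell: EIF3M-212, of a translation initiation factor subunit, with 151 and 132 TPM in the WT libraries, 154 and 127 with GFP, and 62.3 and 65.0 with RBMXL3. Among 43 of the respiratory chain, only the COX6C pair was called. Among 64 of proteasome and ubiquitin genes, 1 rose and 1 fell, UBE2K-205 and UBA2-203. UBE2K-205 passed the TPM minimum only in RBMXL3 libraries, so it had to differ. Of 25 transcripts from genes known as NMD targets, none was called in TPM against either control, beside 1.25% and 1.53% of all transcripts.

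The machinery of NMD was followed in the gene table, whose normalised read counts were tested with limma over 14292 genes. Of 19 NMD factors, 2 were higher and 2 lower against GFP, where 20.9% of all genes were called (10.5% higher and 10.4% lower), and 0 were higher and 4 lower against WT, where 29.9% were called (14.6% higher and 15.3% lower). Against both controls 6.86% of all genes were lower, and between GFP and WT 3.67% were called (1.76% higher and 1.91% lower), XRN1 among them (-0.49; limma adjusted p 0.0332). The 2 release factor genes GSPT1 and ETF1, whose products act together to end translation at a stop codon, were lower against both controls. ETF1 had normalised read counts of 10667 and 10274 in the WT libraries, 8599 and 9956 with GFP, and 7197 and 7003 with RBMXL3 (log2 changes -0.38 and -0.56, SE 0.10 each; limma adjusted p 0.0216 and 0.00204). GSPT1 had log2 changes of -0.33 and -0.48 (adjusted p 0.0389 and 0.00496), and with a replicate block its adjusted p against GFP was 0.0656. The central helicase UPF1 was at 7497 to 8317 in all 6 libraries and was not called (-0.03 and -0.07).

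Of 8 genes of the exon junction complex, 2 were lower against both controls: EIF4A3, its RNA-clamping helicase, and MAGOH, part of its core. Of all genes, 6.86% were lower and 6.88% higher against both. Against GFP 0 of the 8 were higher and 2 lower, beside 10.5% and 10.4% of all genes. Against WT 3 were lower and 1 higher, beside 15.3% and 14.6%. The higher gene was PYM1 (limma log2 change 0.46, adjusted p 0.0116). MAGOH had normalised read counts of 2086 and 2214 in the WT libraries, 2578 and 2306 with GFP, and 1504 and 1510 with RBMXL3 (log2 changes -0.69 and -0.51, SE 0.10 each; limma adjusted p 0.00094 and 0.00277). EIF4A3 had 5889 and 6371 in the WT libraries, 7962 and 6821 with GFP, and 4869 and 4712 with RBMXL3 (-0.62 and -0.35; adjusted p 0.00212 and 0.0233). RBM8A, the partner of MAGOH, was not called (-0.04 and -0.15). UPF3A, at 0.32, and XRN1, a 5′ exonuclease, at 0.47, were higher against GFP only. The gap between a gene's 2 changes is its difference between GFP and WT, which limma did not call for UPF3A (-0.06; adjusted p 0.738). Without either RBMXL3 library, 1 gene of the NMD and exon junction lists was called against both controls, and without either WT library 2.

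**Figure D5:**
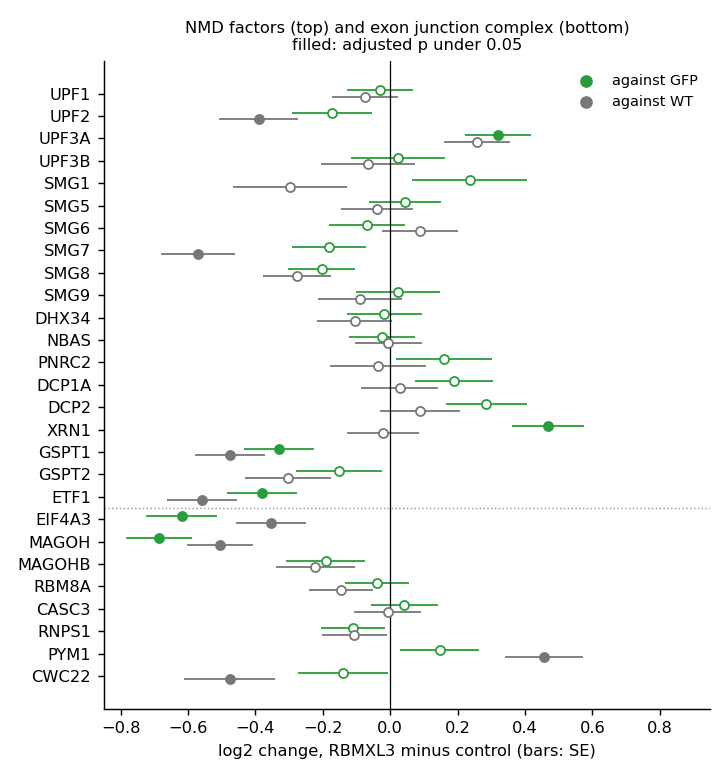
Log2 change of normalised read counts in RBMXL3 against GFP (green) and against WT (grey) for 19 NMD factor genes and 8 genes of the exon junction complex, with bars for the SE; filled points have a limma adjusted p under 0.05. GSPT1, ETF1, EIF4A3 and MAGOH are filled on the lower side in both comparisons.

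The tested genes listed as sensitive to NMD numbered 31, and UPF3A and SMG5 among them were also counted with the 19 NMD factors. Against GFP, 5 were higher and 3 lower, beside 10.5% and 10.4% of all genes. Against WT, 9 were higher and 0 lower, beside 14.6% and 15.3%. Lower against GFP were ZFAS1, EIF4A2 and RPL12 (log2 changes -0.59, -0.38 and -0.34, limma adjusted p 0.0153, 0.0196 and 0.0406). Higher against both controls were GADD45B, CARS1, SLC7A11 and ASNS, against a background of 6.88% of genes higher against both. SLC7A11, the cystine transporter, had 436 and 524 normalised reads in the WT libraries, 404 and 492 with GFP, and 1042 and 1038 with RBMXL3 (log2 changes 1.18 and 1.08; limma adjusted p 0.000245 and 0.000149). GADD45B, a growth-arrest gene, had 260 and 264 in the WT libraries, 244 and 283 with GFP, and 483 and 428 with RBMXL3. ASNS was low, at 12.7 to 57.9 normalised reads. CDKN1A, called only against WT (limma log2 change 1.01; adjusted p 7.18e-05), was also higher in GFP than in WT (0.75; adjusted p 0.0110). Several genes of this list also belong to the amino acid and stress responses, and the list's median log2 changes were 0.10 and 0.19, beside 0.00087 and -0.01 over all genes. For GFP against WT, whose libraries both enter these comparisons, the list's median was 0.16, beside -0.0078 over all genes. There 3 genes of the list were higher and 0 lower, beside 1.76% and 1.91% of all genes.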

How the data were processed

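Polyadenylated RNA of 6 TCam-2 libraries was sequenced after stranded library preparation, per the labels' protocols. The submitters' processing notes name Trim Galore 0.6.10, STAR 2.7.11a, Salmon 1.10.2 and DESeq2, with no role or order; the annotation release and whether gene counting used strand are not given in the sources used here. The authors deposited a transcript table in TPM and a gene table of normalised signal. In the latter, 100% of the 145320 nonzero values were whole reads (within 0.01) times a factor per library, so depth was recovered. Table columns that belong to no sample numbered 0.

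Transcripts were matched by identifier, with the version dropped, to GENCODE 29: 201667 of 251955 (80.0%) matched, with 94.7% to 95.1% of TPM, and unmatched transcripts stayed out of gene totals. TPM was tested as log2(TPM + 1) with limma 3.58.1 (R 4.3.3) and an intensity trend. Shares were tested as the arcsine of the square root, in genes with a mean of at least 5 TPM and at least 2 listed transcripts. Summed NMD shares needed a mean of at least 1%. Gene values were divided by 23.9 so that the mean column total is that of CPM, and tested as log2(value + 1) with a minimum of 1 in at least 2 libraries. Fold changes on these scales understate changes of low features. Each fit held all 6 libraries, tests were two-sided, and calls needed a Benjamini-Hochberg adjusted p under 0.05 over all features. The library share was tested with an exact permutation test (scipy). diffSplice, edgeR 4.0.16 and DESeq2 1.42.0 on recovered reads, other minima and pseudocounts, a replicate block and each library left out were alternatives. The scripts were tested on simulated data.

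Named were the 8 most abundant transcripts, the 8 largest rises and up to 8 falls in share against both controls, splicing-regulator transcripts, and genes of the NMD lists; the 6 smaller rises, genes of the summed shares and transcripts of other lists were named after their values were seen. The members, lists and tests were chosen with earlier results of these data known.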

Additional observations from a re-analysis of the deposited data

How the results depend on the processing

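Counts against GFP, against WT and against both controls are given in this order. The TPM test called 50, 56 and 39 NMD-annotated transcripts, and 15, 17 and 11 with no minimum on TPM. The share test called 31, 26 and 22, and 16, 15 and 13 on untransformed percent; diffSplice called 157, 134 and 88, and 16 between GFP and WT. Summed shares gave 12, 5 and 3 genes; with a gene mean of at least 20 TPM the count was 11 against WT, 11 against both and 0 between GFP and WT, and with no minimum share 15 against WT and 7 against both. For the 27 NMD and exon junction genes, DESeq2 called 3 between GFP and WT, where limma called 1. The cause of these moves was not tested.

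With each library left out in turn, the lone replicate is assumed to vary like the other groups. The TPM test then called 0 to 40, 0 to 43 and 0 to 25, the share test 0 in each fit, summed shares 0 to 8, 0 to 0 and 0 to 0 (0 to 0 between GFP and WT), and the NMD and exon junction genes 2 to 8, 2 to 12 and 1 to 6 (0 to 8 between GFP and WT). The library share of NMD-annotated transcripts moved between -0.172 and -0.0421 percentage points; these values were chosen after seeing the data. Of 462 share values for the 22 called transcripts across alternatives, 0 changed direction and 128 stayed past the threshold. In all 22 both RBMXL3 libraries lay outside every control. Leaving out a library or testing untransformed percent could therefore not change a direction, and the 0 is no support.

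Same-numbered replicates did not deviate together (correlations of -0.156 to 0.0337), so the numbers do not pair the libraries. With the replicate block, the TPM test called 6, 6 and 5, the share test 0, 0 and 0, summed shares 0, 0 and 0 (0 between GFP and WT), and the NMD and exon junction genes 4, 8 and 3 (0 between GFP and WT), beside 6, 8 and 4 without it. The gene lost against both controls was GSPT1.

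Depth was lowest in RBMXL3, and TPM gives no limit of detection for a transcript listed at 0.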
